A study of Mus musculus with 3 samples.

Results

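Interferon-stimulated genes were read in leukocytes of the mouse heart, as a list of 51 symbols that covers the transcription factors, sensors, antiviral effectors, chemokines and GTPases of the interferon response. The members were chosen by symbol and not by a cut on a measured value, but with earlier results of these data known. Of the 51 symbols, 50 matched a gene among the 32285 in the count matrices, and Mx2 was not analysed here. The series holds 3 droplet single-cell RNA libraries of cells sorted for CD45, the surface protein shared by blood-derived cells, from hearts of C57BL/6J mice aged 8 to 9 weeks. The name MI-E is used here as the labels give it, without an expansion, MI is the library of infarcted hearts, and Sham is the library of operated control hearts. The same operation text, with ligation of the left anterior descending coronary artery, stands on all 3 libraries, Sham included. How long after the operation hearts were taken, and how many went into a library, the sources used here do not give. Each group is 1 library, so no difference below has a replicate check, no test between groups was possible, and every interval covers counting error only.

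Type I interferons are secreted by infected or damaged cells and by phagocytes that sense foreign or misplaced nucleic acid. They bind a shared receptor whose kinases activate factors such as STAT2. With IRF9, STAT2 takes part in a complex that binds the interferon-stimulated response element, a promoter motif, and switches on the genes described here. IRF7, itself an interferon target, raises interferon production further. Type II interferon, made mainly by NK and T cells, acts at a different motif, the gamma-activated site, and drives guanylate-binding proteins and the chemokines CXCL9 and CXCL10 strongly. In the infarcted heart, an interferon response of macrophages to DNA of dying cells is known from mouse studies.

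RefSeq promoter windows of the assembly GRCm38.p6, 250 bases before to 50 bases after the gene start, were found for 41 of the 50 matched members. The response element core, read as GAAA, any 2 bases and GAAA again, lay on either strand in 24 of these 41 windows (58.5%), against 3.49% of all 27025 windows in the table. The gamma-activated core TTCNNNGAA lay in 9 (22.0%), against 8.47% of all windows, and 14 member windows held neither motif. Upstream stretches of 8 members are shown because the results turn on them. Higher means at least 1.5-fold higher here. Irf7, Oasl2, Gbp2 and Igtp were higher in MI-E than MI in every class compared. Bst2 was higher in both MI and MI-E than in Sham in every class. Isg15 and Ifit3 differed by class, and Samd9l was higher in no class where it was measured. Capitals mark every match to the response element core on either strand, overlapping matches merged.
Irf7: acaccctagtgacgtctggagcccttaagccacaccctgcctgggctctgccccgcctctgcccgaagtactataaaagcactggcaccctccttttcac
Oasl2: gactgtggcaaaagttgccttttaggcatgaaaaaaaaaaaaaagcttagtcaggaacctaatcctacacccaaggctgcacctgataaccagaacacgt
Gbp2: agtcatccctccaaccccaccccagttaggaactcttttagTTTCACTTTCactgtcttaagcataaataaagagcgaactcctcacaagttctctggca
Igtp: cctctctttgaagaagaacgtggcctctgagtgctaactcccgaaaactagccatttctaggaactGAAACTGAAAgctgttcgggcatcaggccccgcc
Bst2: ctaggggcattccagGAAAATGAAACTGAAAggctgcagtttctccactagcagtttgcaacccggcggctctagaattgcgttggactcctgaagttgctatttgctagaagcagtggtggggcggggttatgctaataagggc
Isg15: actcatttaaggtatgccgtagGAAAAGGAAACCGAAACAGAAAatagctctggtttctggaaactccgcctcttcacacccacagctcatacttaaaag
Ifit3: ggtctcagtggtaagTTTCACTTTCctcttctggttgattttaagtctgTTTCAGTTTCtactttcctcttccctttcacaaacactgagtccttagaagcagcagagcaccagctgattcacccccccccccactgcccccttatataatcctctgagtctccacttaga
Samd9l: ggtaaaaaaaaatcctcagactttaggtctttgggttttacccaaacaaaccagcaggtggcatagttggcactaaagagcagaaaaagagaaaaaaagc
The stretches lie at chr7:141266425-141266524 on the minus strand for Irf7, chr5:114896834-114896933 on the plus strand for Oasl2, chr3:142620563-142620662 on the plus strand for Gbp2 and chr11:58199456-58199555 on the plus strand for Igtp. They lie at chr8:71537473-71537617 on the minus strand for Bst2, chr4:156200819-156200918 on the minus strand for Isg15, chr19:34583358-34583528 on the plus strand for Ifit3 and chr6:3399572-3399671 on the minus strand for Samd9l. All end just upstream of the first listed start of the gene, and other starts were not read. The bases after that start were found near the beginning of a known transcript of the gene for 30 of the 41 members. The stretch of Isg15 holds 3 overlapping matches, those of Bst2 and Ifit3 2 each, and those of Gbp2 and Igtp 1 each. The windows of Irf7, Oasl2 and Samd9l hold no such letters, so genes with and without the motif in this window stand among those higher in every class.

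Each library held between 9095 and 12707 barcodes and between 41140109 and 104562768 unique molecular identifiers (UMIs, 1 per captured RNA molecule). After filters, 11968 cells remained in MI-E, 8188 in MI and 10669 in Sham, with a median of 7399 UMIs per cell in MI-E, 9459.5 in MI and 2770 in Sham. Between 26 and 45 barcodes were shared by any pair of libraries. Cells were clustered without the members and without the pathway genes, so that no class was formed by the genes read in it, and the clusters were called macrophage-like, neutrophil-like and so on from marker lists; the suffix is left out below. Endothelial cells and fibroblasts, which should lack CD45, were present in the sort in all 3 libraries. UMIs were summed per class and library and scaled to the total of the class, as CPM. A member counted as measured with at least 20 UMIs over both libraries of a comparison, and is called higher or lower at a CPM ratio of at least 1.5; "rose" and "fell" are used for such calls only. The share of all measured genes past the same ratio is given as background. A class was compared where both libraries held at least 50 of its cells.

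Monocytes and macrophages were the most numerous cells that carry the response, with 6558 cells in MI-E, 6219 in MI and 5409 in Sham. In MI-E over MI, 19 of the 50 members rose and none fell, against a background of 8.20% of genes higher and 11.9% lower. The median log2 ratio was 0.47 over the members and -0.01 over all measured genes, and 47 of 50 ratios were above 0. In MI over Sham, 23 members rose and 7 fell, beside 22.8% and 29.8% of all genes, so that the share lower lay below the background and the share higher above it. In MI-E over Sham, 34 rose and 4 fell, beside 22.3% and 32.1% of all genes. At a limit of 2-fold, 6 members were higher in MI-E over MI and 3 lower in MI over Sham. Different clusters make up most of this class in Sham and in the infarct libraries: clusters led by Gpnmb, Cxcl3, Cfb, Hp and Ube2c in MI and MI-E, and clusters led by Lilra5, Hspa1b and Lyve1 in Sham.

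**Figure D1:**
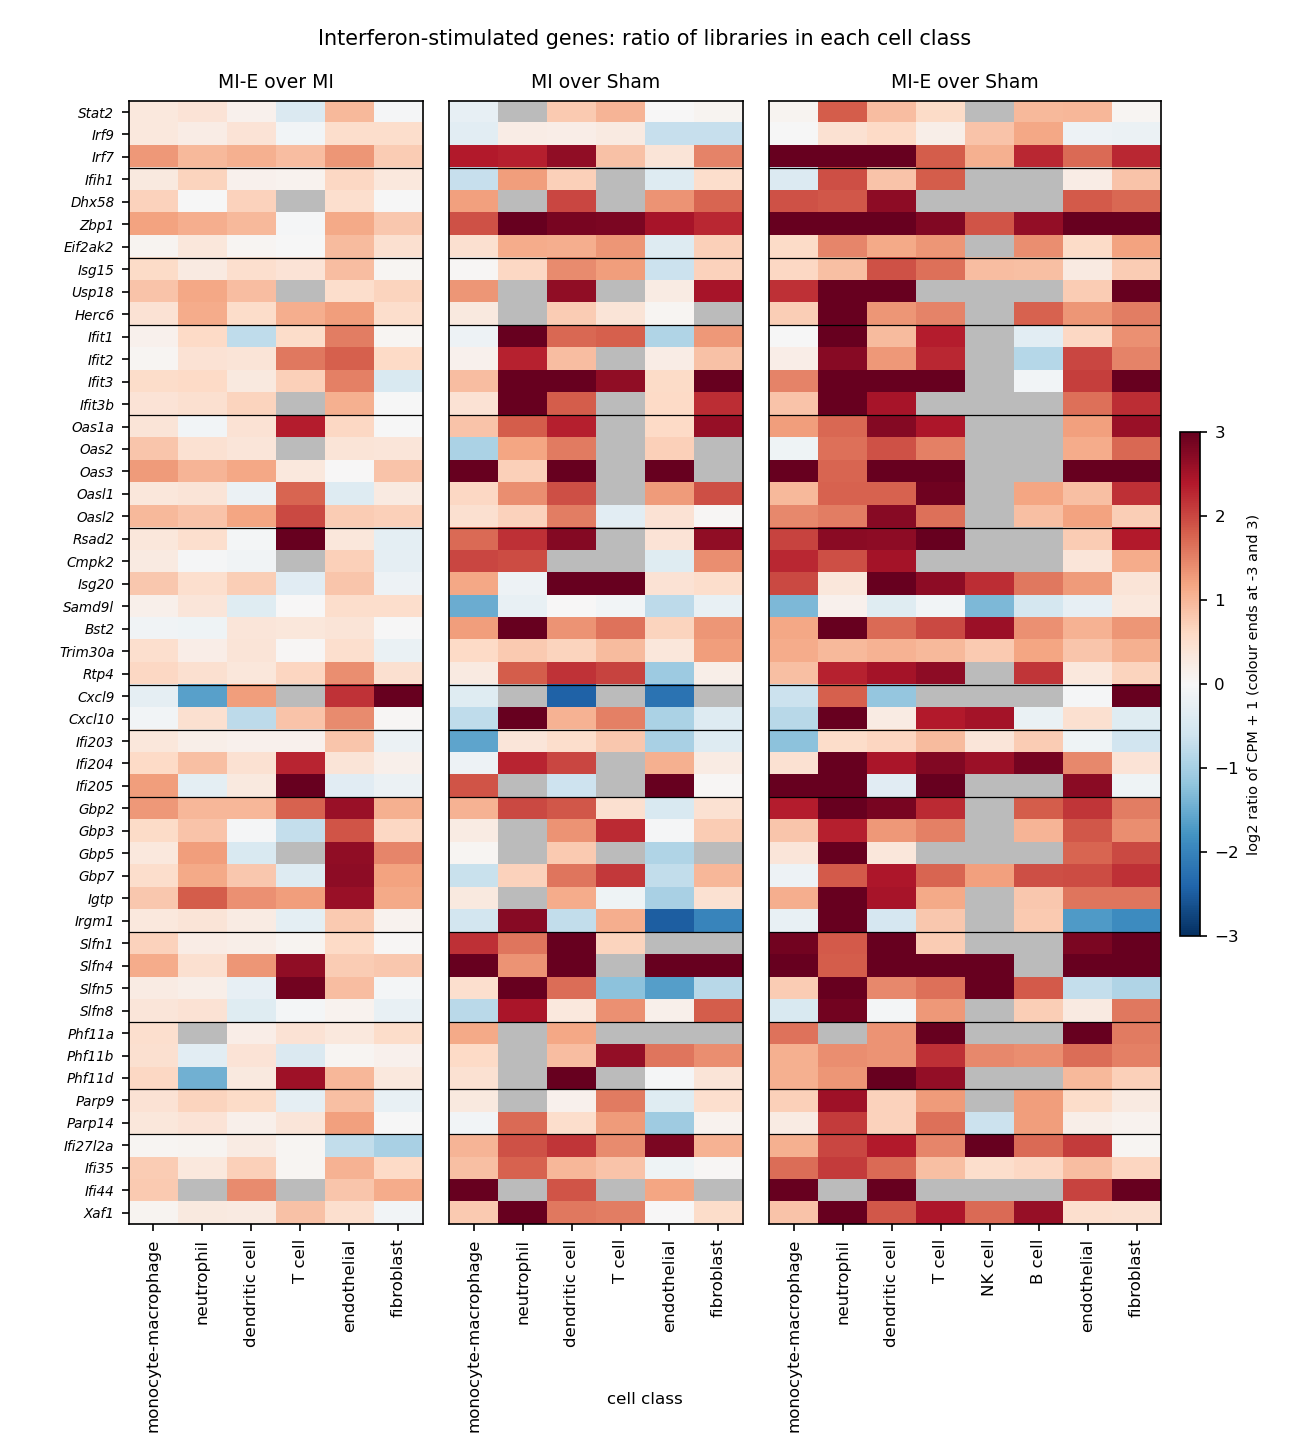
Log2 ratios of CPM + 1 for the 50 members (down the page, by role) in each cell class (across), for MI-E over MI, MI over Sham and MI-E over Sham. Red is higher in the first-named library, blue lower, grey not measured, and the colour scale ends at 3 either way. Irf7, Oasl2, Gbp2 and Igtp are red in all 6 classes of MI-E over MI, and Samd9l is at least 1.5-fold higher in none.

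Among the transcription factors, Irf7 rose, and its partners in the response did not pass the limit. Irf7 stood at 395 CPM in MI-E, 160.0 in MI and 29.8 in Sham in monocyte-macrophage cells. Its ratio was 2.47-fold (95% interval 2.42 to 2.52) for MI-E over MI and 13.2-fold (95% interval 12.3 to 14.3) for MI-E over Sham, so the 3 libraries are ordered with MI between the others. Irf9, the DNA-binding subunit of the complex that holds STAT2, stood at 39.0 CPM in MI-E, 31.0 in MI and 39.0 in Sham. Stat2 stood at 16.1 CPM in MI-E, 12.8 in MI and 15.3 in Sham. Neither passed 1.5-fold in any comparison of this class.

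Of the nucleic acid sensors, Zbp1, a sensor of left-handed nucleic acid that can trigger cell death, stood at 233 CPM in MI-E, 99.4 in MI and 25.7 in Sham. It was 2.34-fold higher in MI-E than MI and 3.86-fold (95% interval 3.56 to 4.20) higher in MI than Sham. Dhx58, a regulator of the RNA sensors RIG-I and MDA5, stood at 39.8 CPM in MI-E, 24.4 in MI and 9.79 in Sham and rose in both of these comparisons. Ifih1, which encodes MDA5, went the other way over the class as a whole, at 55.5 CPM in MI-E, 45.4 in MI and 73.7 in Sham. Its level in MI was 1.62-fold (95% interval 1.53 to 1.72) lower than in Sham, but within single clusters it was higher in MI, as described below. Eif2ak2, the kinase that stops translation when it binds double-stranded RNA, stood at 29.4 CPM in MI-E, 27.6 in MI and 19.4 in Sham and passed the limit in MI-E over Sham alone.

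In the ISG15 system, Isg15, a ubiquitin-like protein attached to other proteins, stood at 577 CPM in MI-E, 385 in MI and 374 in Sham. Its ratio for MI-E over MI was 1.5-fold (95% interval 1.47 to 1.52), on the limit but just under it, and its ratio for MI over Sham was 1.03-fold (95% interval 1.00 to 1.05). Usp18, the protease that removes ISG15 and dampens the receptor, stood at 37.6 CPM in MI-E, 20.2 in MI and 7.50 in Sham and rose 1.86-fold and 2.70-fold in these comparisons. Herc6, the ligase that attaches ISG15 in mice, stood at 21.6 CPM in MI-E, 15.6 in MI and 12.5 in Sham and was called only in MI-E over Sham. Isg15 itself was called in MI-E over Sham alone, at 1.54-fold (95% interval 1.51 to 1.58).

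The IFIT proteins bind viral RNA and block its translation. Ifit3 stood at 46.2 CPM in MI-E, 31.2 in MI and 15.8 in Sham, and Ifit3b, its close copy, at 5.8 CPM in MI-E, 4.08 in MI and 2.75 in Sham. Ifit1 stood at 50.7 CPM in MI-E, 46.0 in MI and 50.8 in Sham and Ifit2 at 17.4 CPM in MI-E, 16.7 in MI and 15.1 in Sham. Ifit3 rose 1.97-fold (95% interval 1.77 to 2.20) in MI over Sham, Ifit1 and Ifit2 were called in no comparison of the whole class, and none of the 4 was called in MI-E over MI. Within single clusters of the class the comparison with Sham came out differently for Ifit1 and Ifit2, as described below.

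The OAS genes encode enzymes that make the second messenger of the RNA-degrading RNase L, or relatives without that activity. Oas3 stood at 69.1 CPM in MI-E, 28.1 in MI and 2.67 in Sham and rose 2.46-fold (95% interval 2.34 to 2.59) in MI-E over MI and 10.5-fold (95% interval 8.21 to 13.7) in MI over Sham. Oasl1, the member of the family with the most UMIs, stood at 172 CPM in MI-E, 134 in MI and 87.2 in Sham. Oas2 stood at 14.6 CPM in MI-E, 7.77 in MI and 16 in Sham; it rose 1.88-fold in MI-E over MI and was 2.06-fold lower in MI than Sham. Oasl2 stood at 103 CPM in MI-E, 52.1 in MI and 36.9 in Sham and Oas1a at 61.2 CPM in MI-E, 46.5 in MI and 25.2 in Sham. For MI-E over MI, 3 of the 5 OAS genes rose, Oasl2 among them at 1.97-fold.

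Among the other antiviral effectors, Bst2, or tetherin, which holds budding virus at the cell surface, stood at 699 CPM in MI-E, 747 in MI and 311 in Sham. It was 2.40-fold (95% interval 2.35 to 2.46) higher in MI than Sham and had a ratio of 0.936 for MI-E over MI. Isg20, an RNA-degrading exonuclease, stood at 52.1 CPM in MI-E, 29.1 in MI and 12.5 in Sham and rose in both steps. Cmpk2, a mitochondrial nucleotide kinase, stood at 18.1 CPM in MI-E, 14.8 in MI and 2.96 in Sham, so that nearly all of its rise lay between Sham and MI. Rsad2, or viperin, stood at 174 CPM in MI-E, 138 in MI and 41.7 in Sham, Trim30a at 133 CPM in MI-E, 93.8 in MI and 61.3 in Sham and Rtp4 at 81.3 CPM in MI-E, 52.3 in MI and 42.9 in Sham. Samd9l, which restrains translation and growth, was the exception at 34.8 CPM in MI-E, 31.4 in MI and 89.7 in Sham, 2.86-fold (95% interval 2.69 to 3.03) lower in MI than Sham.

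Over the class as a whole, the chemokines did not follow the effectors. Cxcl10, which draws CXCR3-bearing T and NK cells, stood at 242 CPM in MI-E, 255 in MI and 431 in Sham, and its level in MI was 1.69-fold (95% interval 1.65 to 1.73) lower than in Sham. Cxcl9, a ligand of the same receptor, stood at only 4.21 CPM in MI-E, 5.31 in MI and 7.08 in Sham. Within single clusters Cxcl10 was higher in MI than Sham, with a mean log2 ratio of 1.54, as described below.

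The p200 family, nuclear sensors and regulators that bind DNA, moved in different directions over the class. Ifi204 stood at 284 CPM in MI-E, 187 in MI and 207 in Sham and Ifi205 at 121 CPM in MI-E, 50.5 in MI and 13 in Sham. Ifi205 rose 2.40-fold in MI-E over MI and 3.90-fold in MI over Sham. Ifi203 stood at 117 CPM in MI-E, 91.8 in MI and 276 in Sham and was 3.01-fold (95% interval 2.91 to 3.12) lower in MI than Sham. Within clusters its mean log2 ratio for MI over Sham was 0.05, as described below.

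Guanylate-binding proteins and immunity-related GTPases attack the membranes of vacuoles that hold microbes. Gbp2 stood at 47.1 CPM in MI-E, 18.5 in MI and 8.42 in Sham and rose 2.54-fold (95% interval 2.39 to 2.71) in MI-E over MI. Gbp7 stood at 25.3 CPM in MI-E, 17.4 in MI and 28.4 in Sham, Igtp at 21.4 CPM in MI-E, 11.9 in MI and 9.46 in Sham and Irgm1 at 27.2 CPM in MI-E, 21.5 in MI and 31.8 in Sham. Gbp3, at 22.0 CPM in MI-E, 14.4 in MI and 12.0 in Sham, and Gbp5, at 5.31 CPM in MI-E, 4.09 in MI and 3.87 in Sham, were scarcer. Over the class, MI lay below both other libraries for Gbp7 and Irgm1, and between them for Gbp2. Within single clusters Gbp7 was higher in MI than Sham, as described below.

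Of the Schlafen genes, regulators of T cell and myeloid growth and of translation, Slfn4 stood at 74.5 CPM in MI-E, 33.8 in MI and 1.87 in Sham. It was 2.20-fold higher in MI-E than MI and 18.0-fold (95% interval 13.4 to 24.8) higher in MI than Sham. Slfn1 stood at 38.2 CPM in MI-E, 23.1 in MI and 4.25 in Sham. Slfn5 stood at 125 CPM in MI-E, 104 in MI and 73.7 in Sham and Slfn8 at 22.3 CPM in MI-E, 17.2 in MI and 31.0 in Sham, where Slfn8 was 1.80-fold lower in MI than Sham. The PHF11 genes stood at 117 CPM in MI-E, 83.1 in MI and 54.9 in Sham for Phf11b, 28.8 CPM in MI-E, 20.2 in MI and 8.71 in Sham for Phf11a and 72.7 CPM in MI-E, 47.3 in MI and 34.3 in Sham for Phf11d. All 3 rose in MI-E over Sham. Parp14, an ADP-ribosyl transferase, stood at 81.7 CPM in MI-E, 64.4 in MI and 68.6 in Sham and its relative Parp9 at 24.2 CPM in MI-E, 17.8 in MI and 14.3 in Sham.

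Of the remaining members, Ifi27l2a, a small mitochondrial and nuclear membrane protein, was by far the most abundant at 4266 CPM in MI-E, 4128 in MI and 2040.4 in Sham. It made up 46.7% of all member UMIs of the class in MI-E, 54.0% in MI and 42.1% in Sham. Its ratio was 1.03 for MI-E over MI, so summed levels are also given without it. Ifi44 stood at 14.4 CPM in MI-E and 8.01 in MI, while Sham held 1 UMI, and the ratio of MI over Sham has a 95% interval from 34.4 to 7606. Xaf1, a promoter of cell death, stood at 54.7 CPM in MI-E, 51.7 in MI and 29.7 in Sham and Ifi35 at 122 CPM in MI-E, 71.0 in MI and 37.3 in Sham.

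**Figure D2:**
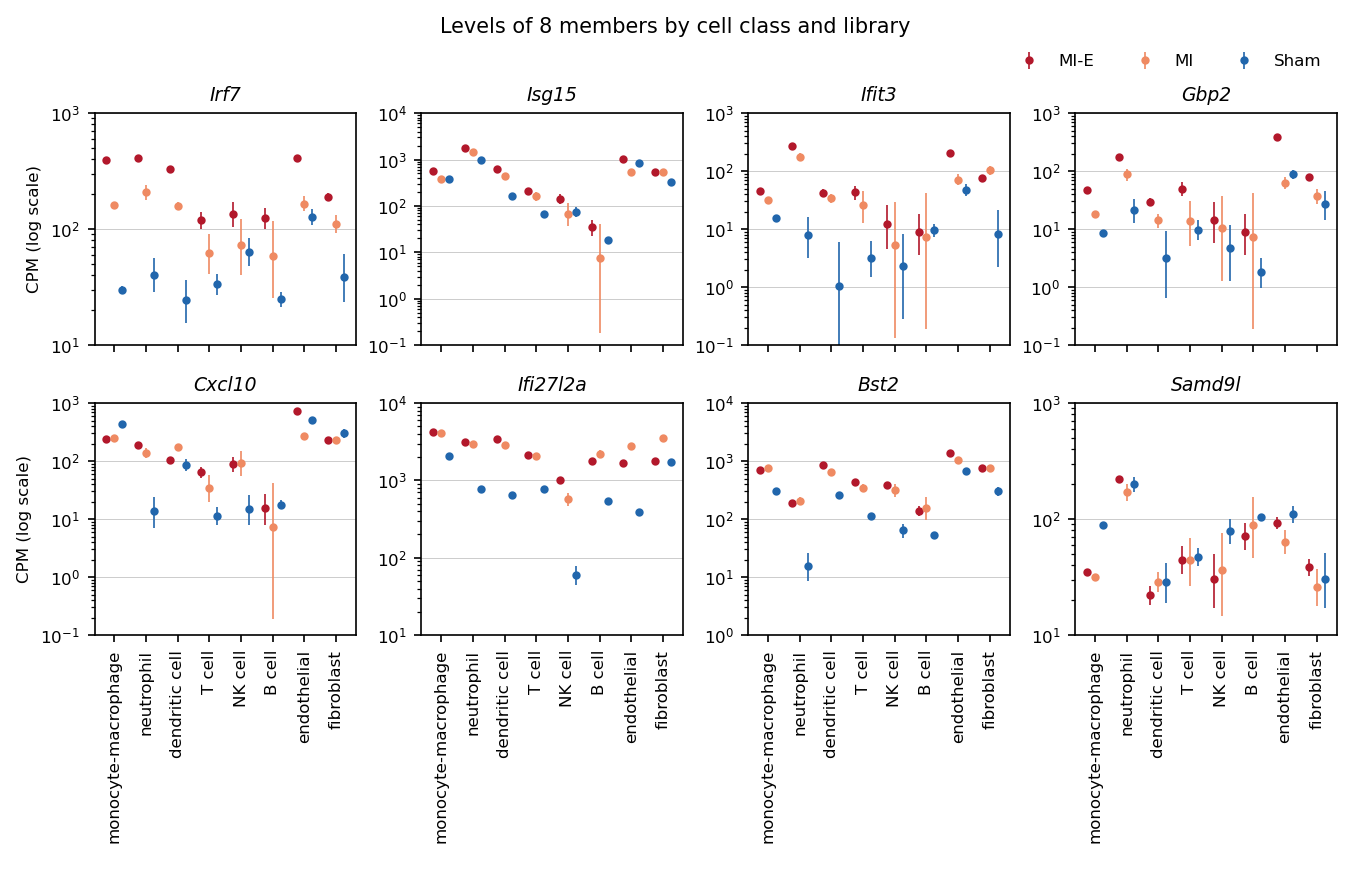
Levels in CPM (log axis, cut at 0.1) of Irf7, Isg15, Ifit3, Gbp2, Cxcl10, Ifi27l2a, Bst2 and Samd9l by cell class, with 1 point per library (MI-E, MI, Sham) and bars for the exact Poisson 95% interval. Irf7 in monocyte-macrophage cells is highest in MI-E (395 CPM) and lowest in Sham (29.8 CPM), while Samd9l there is highest in Sham (89.7 CPM).

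Summed over the members, monocyte-macrophage cells held 9134 CPM in MI-E, 7641 in MI and 4849 in Sham. Without Ifi27l2a the sums were 4867 CPM in MI-E, 3514 in MI and 2809 in Sham. The ratio of MI-E over MI was 1.20 with Ifi27l2a and 1.39 without it. To compare cells of unequal depth, each was thinned to 1500 UMIs, which left out 24 cells of MI-E, 67 of MI and 1330 of Sham. At that depth, 68.5% (95% interval 67.4 to 69.7) of cells in MI-E, 44.0% (95% interval 42.7 to 45.2) in MI and 29.9% (95% interval 28.5 to 31.3) in Sham held at least 5 different members. The median cell held 6 members in MI-E, 4 in MI and 3 in Sham. This limit cuts a continuous range: 833 cells of MI-E, 938 of MI and 720 of Sham held exactly 4, while 854 cells of MI-E, 760 of MI and 482 of Sham held exactly 5.

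**Figure D3:**
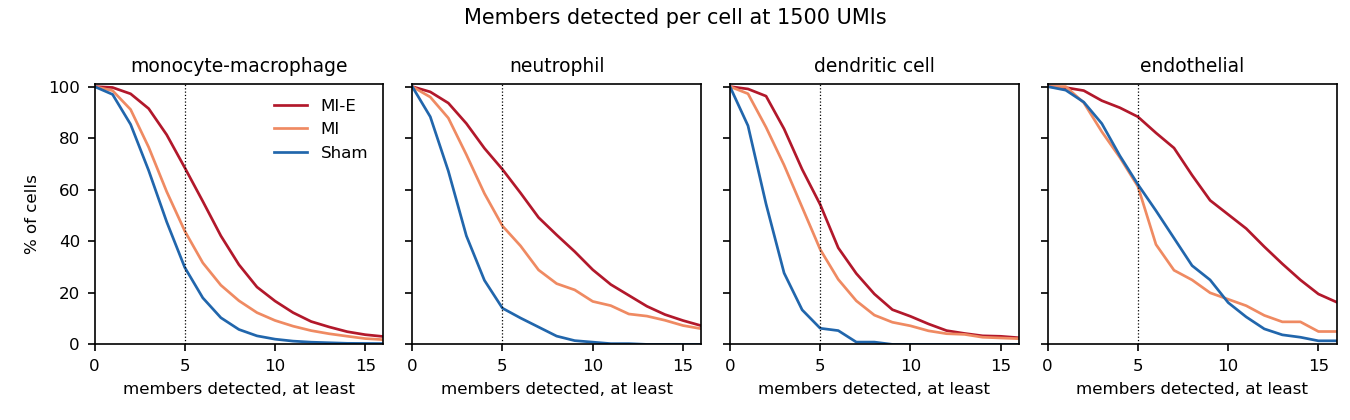
Percent of cells (vertical axis) in which at least a given number of members (horizontal axis) was detected after thinning to 1500 UMIs, for monocyte-macrophage cells, neutrophils, dendritic cells and endothelial cells, with 1 line each for MI-E, MI and Sham. At 5 members, the MI-E line lies above the others in all 4 classes, at 68.5%, 67.9%, 54.2% and 88.3%.

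Because the class is made of different clusters in Sham and in the infarct libraries, the members were also read within clusters that hold at least 50 cells of both libraries. The classical monocyte cluster, led by Ifitm6, Dmkn, Hp and Vcan, had 1414 cells in MI-E, 394 in MI and 166 in Sham. There 31 of 48 measured members rose and 0 fell in MI over Sham, beside 21.9% and 13.7% of all genes of the cluster. The summed level of that cluster was 12049.7 CPM in MI-E, 9574 in MI and 5408 in Sham. The cluster led by Fcna, Cd163 and Lyve1, genes of resident macrophages, had 184 cells in MI-E, 333 in MI and 378 in Sham. In it 31 of 47 members rose and 1 fell in MI over Sham, beside 22.7% and 17.8% of its genes. Its summed level was 15567 CPM in MI-E, 14099.7 in MI and 5098 in Sham. Averaged over these 2 clusters, no member was 1.5-fold lower in MI than Sham, against the 7 lower in the class as a whole.

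The sign of 9 members in MI over Sham turned from below 0 over the class to above 0 in the mean of these clusters. Of these, 4 had fallen over the class, and their mean log2 ratio within clusters was 1.54 for Cxcl10, 1.35 for Ifih1, 0.70 for Gbp7 and 0.05 for Ifi203. The other 5 had passed no limit over the class, with means of 2.10 for Ifit1, 0.55 for Ifi204, 0.51 for Parp14, 0.26 for Stat2 and 0.08 for Irgm1. Ifi203, Stat2 and Irgm1 were above 0 in 1 of the 2 clusters. The other IFIT genes had means of 1.02 for Ifit2, 1.11 for Ifit3 and 0.08 for Ifit3b. In MI-E over Sham, over 3 clusters, Ifit1 had a mean of 3.61, with a range of 2.42 to 5.83, and Ifit2 of 2.12, with a range of 0.89 to 3.60. The cluster added there was the nonclassical monocytes, with 67 cells in MI-E and 155 in Sham, where 22 members were measured. For Isg15 the mean for MI over Sham was 1.52, against 0.04 over the class. Oasl1, at 2.59, and Rsad2, at 2.46, had the highest means of that comparison, and Oas2, at -0.47, and Samd9l, at -0.30, were below 0 in both clusters. In MI-E over MI, 6 clusters could be read, and 36 of the 50 members had ratios above 0 in all 6. The number that rose was 32 in the cycling cluster led by Ube2c and 32 in the Fcna cluster, and between 11 and 16 in the other 4. Beside these stood 9.83% of genes higher in the Ube2c cluster, 10.9% in the Fcna cluster and between 7.0% and 7.94% in the other 4. Irf7 had a mean log2 ratio of 1.17 over the 6 clusters, with a range of 0.84 to 1.74, whereas Ifi27l2a had -0.01 and, like Bst2, was above 0 in 3 of the 6.

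Immediate early and heat shock genes, known to rise in cells under stress and during tissue digestion, were highest in the Sham library in this class. A set of 10 (Fos, Fosb, Jun, Junb, Egr1, Atf3, Hspa1a, Hspa1b, Ier2, Dusp1), chosen after the data were seen, summed to 2837 CPM in MI-E, 3066 in MI and 15958 in Sham. In endothelial cells the sums were 7784 CPM in MI-E, 4579.9 in MI and 19570.1 in Sham, and in fibroblasts 5468 CPM in MI-E, 4937 in MI and 18380.2 in Sham. Neutrophils were lowest in Sham, with 6977 CPM in MI-E, 6911 in MI and 4009.6 in Sham. The part of these genes in the comparisons with Sham was not tested.

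Neutrophils, granulocytes that enter injured tissue early, had the highest median log2 ratio of the members for MI over Sham of the 6 classes, at 1.85, with 0.21 over all genes. The class had 3005 cells in MI-E, 358 in MI and 436 in Sham, and the Sham cells came mostly from a cluster led by Retnlg that held few cells of the other libraries. For MI over Sham, 32 of 36 measured members rose and 0 fell, beside 33.3% and 18.4% of all genes. For MI-E over Sham, 44 of 48 rose and 0 fell, beside 34.1% and 17.7%. For MI-E over MI, 16 of 48 rose and 2 fell, beside 14.8% and 15.4%, and 8 were higher at 2-fold. The cluster led by Cstdc4 held 1800 cells in MI-E and 153 in MI, and the cluster led by Il23a 1169 and 191. In the Cstdc4 cluster 15 of 47 measured members rose and 2 fell, beside 19.2% and 16.6% of its genes. In the Il23a cluster 12 of 44 rose and 3 fell, beside 15.4% and 15.4%.

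All 4 IFIT genes rose in neutrophils in MI over Sham. Ifit1 stood at 282 CPM in MI-E, 185 in MI and 20.3 in Sham and Ifit2 at 42.9 CPM in MI-E, 31.7 in MI and 5.64 in Sham. Ifit3 stood at 269 CPM in MI-E, 178 in MI and 7.89 in Sham, a ratio of 22.5-fold (95% interval 10.7 to 57.1) for MI over Sham. Ifit3b was at 107 CPM in MI-E, 76.8 in MI and without a UMI in Sham, and was at least 22.7-fold higher in MI against a floor of 3 UMIs over the class. Irf7 stood at 409.9 CPM in MI-E, 208 in MI and 40.6 in Sham, with ratios of 1.97-fold (95% interval 1.69 to 2.31) for MI-E over MI and 5.14-fold (95% interval 3.57 to 7.58) for MI over Sham. Isg15 in neutrophils was at 1796 CPM in MI-E, 1478 in MI and 966 in Sham.

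Tetherin and the chemokine Cxcl10 also separated the Sham neutrophils from the others. Bst2 stood at 188 CPM in MI-E, 206 in MI and 15.8 in Sham, and Cxcl10 at 193 CPM in MI-E, 138 in MI and 13.5 in Sham, so that the ratio of Cxcl10 for MI over Sham was 10.2-fold (95% interval 5.61 to 20.3) here and below 1 over the whole monocyte-macrophage class. Slfn4 reached 1112 CPM in MI-E, 797 in MI and 313 in Sham and Slfn1 483 CPM in MI-E, 417 in MI and 135 in Sham. Samd9l, at 219.9 CPM in MI-E, 171 in MI and 201 in Sham, and Isg20, at 346 CPM in MI-E, 243 in MI and 272 in Sham, were the 2 antiviral effectors not called in MI over Sham. Of the GTPases, Gbp2 stood at 177 CPM in MI-E, 87.7 in MI and 21.4 in Sham and Igtp at 49.97 CPM in MI-E, 13.4 in MI and 4.51 in Sham, and 5 of the 6 GTPases rose in MI-E over MI. The members summed to 11723 CPM in MI-E, 9246 in MI and 3408 in Sham, while 67.9% (95% interval 66.0 to 69.7) of cells in MI-E, 45.9% (95% interval 39.6 to 52.4) in MI and 14.0% (95% interval 10.5 to 18.2) in Sham held at least 5 members at 1500 UMIs. Too shallow for this depth were 422 neutrophils of MI-E, 112 of MI and 94 of Sham. Macrophage markers in neutrophils were at 10.4% of the level in monocyte-macrophage cells in MI-E, 9.49% in MI and 4.53% in Sham. The part of such RNA in these comparisons was not tested.

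Dendritic cells were led by Cd209a and numbered 546 in MI-E, 363 in MI and 131 in Sham. In MI over Sham, 40 of 49 measured members rose and 3 fell, beside 32.5% and 11.6% of all genes. After thinning to 1500 UMIs per cell, 24 members were higher. In MI-E over Sham, 42 rose and 1 fell, beside 34.8% and 10.5%, and in MI-E over MI 17 rose and 2 fell, beside 10.5% and 8.20%. Irf7 stood at 330.3 CPM in MI-E, 158 in MI and 24.4 in Sham, Zbp1 at 208 CPM in MI-E, 106 in MI and 13.8 in Sham and Isg20 at 114 CPM in MI-E, 68.6 in MI and 5.30 in Sham. Cxcl9 was highest in Sham, at 15 CPM in MI-E, 5.70 in MI and 35.0 in Sham. Cxcl10 was highest in MI, at 103 CPM in MI-E, 177 in MI and 85.9 in Sham, as was Ifit1, at 29.8 CPM in MI-E, 51.5 in MI and 14.8 in Sham. These were the 2 members that fell in MI-E over MI.

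T cells numbered 269 in MI-E, 73 in MI and 750 in Sham, and their member levels were lower than those of myeloid cells. For MI-E over Sham, 41 of 43 measured members rose and 0 fell, beside 32.2% and 9.99% of all genes. For MI over Sham, 24 of 31 rose and 1 fell, beside 31.5% and 18%. In MI-E over MI, 18 of 42 rose and 1 fell, beside 22.8% and 14%. These counts rest on few cells of MI: with doublets kept the 18 became 9, after thinning 7, without cells rich in macrophage RNA 8, and with every cell weighted alike 11. After thinning, 9 were higher in MI over Sham and 17 in MI-E over Sham. Zbp1 stood at 125 CPM in MI-E, 128 in MI and 17.3 in Sham and Irf7 at 119 CPM in MI-E, 62.8 in MI and 33.4 in Sham. Isg20, known to rise in activated lymphocytes as well, stood at 58.9 CPM in MI-E, 74.5 in MI and 8.27 in Sham. Rsad2 stood at 62.3 CPM in MI-E, 6.98 in MI and 2.88 in Sham, and its ratio of 8.92-fold (95% interval 2.94 to 44.2) for MI-E over MI is drawn from few UMIs. In T cells poor in macrophage RNA, whose macrophage markers stay under 10% of the macrophage level of their library, it stood at 21.8 CPM in MI-E, 7.09 in MI and 2.60 in Sham, a ratio of 3.07-fold (95% interval 0.928 to 16) for MI-E over MI. Macrophage markers in all T cells were at 8.87% of the macrophage level in MI-E, 2.66% in MI and 1.53% in Sham.

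NK and B cells could be compared only in MI-E over Sham, with 86 NK cells in MI-E and 298 in Sham, and 317 B cells in MI-E and 2970 in Sham. In NK cells, 15 of 19 measured members rose and 2 fell, beside 16.3% and 21.3% of all genes. The number higher was 26 with doublets kept, 9 with every cell weighted alike and 5 after thinning. Bst2 stood at 384 CPM in MI-E against 63.8 CPM in Sham, Cxcl10 at 89.3 CPM in MI-E against 15.1 CPM in Sham, and Samd9l at 30.4 CPM in MI-E against 78.9 CPM in Sham. Macrophage markers were at 16.7% of the macrophage level in NK cells of MI-E against 1.57% in Sham, and at 12.4% in B cells of MI-E against 2.52% in Sham. In NK cells poor in macrophage RNA, Cxcl10 stood at 43.6 CPM in MI-E against 15.5 CPM in Sham, a ratio of 2.81 in place of 5.92, and Bst2 at 276 CPM in MI-E against 61.9 CPM in Sham. In B cells, 28 of 33 rose and 1 fell, beside 14.7% and 17.9%. B cells had Irf7 at 124 CPM in MI-E against 25 CPM in Sham and Xaf1 at 32.0 CPM in MI-E against 4.36 CPM in Sham. The IFIT genes did not share this pattern in B cells: Ifit1 stood at 11.5 CPM in MI-E against 14.6 CPM in Sham, Ifit3 at 8.95 CPM in MI-E against 9.55 CPM in Sham, and Ifit2 fell.

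Endothelial cells numbered 285 in MI-E, 88 in MI and 403 in Sham, and in them more members rose in MI-E over MI than in any other class. For MI-E over MI, 33 of 50 members rose and 1 fell, beside 20.3% and 9.46% of all genes, with 19 higher at 2-fold. Some of the 33 did not pass 1.5-fold in cells poor in macrophage RNA, Isg15, Ifit3 and Irgm1 among them, as given below. In MI over Sham, 14 rose and 14 fell of 48 measured, beside 24.3% and 24.3%, and in MI-E over Sham 34 rose and 2 fell, beside 24.7% and 15.5%. Macrophage markers were present in these cells: all 12 were detected, at a sum of 10035 CPM in MI-E, 12639.8 in MI and 9630.5 in Sham, which is 45.3% of the macrophage level in MI-E, 53.0% in MI and 17.3% in Sham. The counts in MI over Sham also moved with the treatment of cells: without cells rich in macrophage RNA 6 fell, with every cell weighted alike 7, and after thinning 7 rose and 9 fell.

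All 6 GTPases rose in endothelial cells in MI-E over MI. Gbp2 stood at 391 CPM in MI-E, 63.5 in MI and 87.6 in Sham, and its ratio for MI-E over MI was 6.15-fold (95% interval 4.85 to 7.91). Gbp7 stood at 302 CPM in MI-E, 45.9 in MI and 77.3 in Sham and Gbp5 at 71.7 CPM in MI-E, 10.6 in MI and 20.6 in Sham. Igtp stood at 200.5 CPM in MI-E, 32.7 in MI and 64.8 in Sham and Irgm1 at 108 CPM in MI-E, 62.7 in MI and 351 in Sham. In each of these genes MI was the lowest library, and for Irgm1 Sham was the highest.

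The chemokines of type II interferon had the same order of MI below the other libraries in endothelial cells. Cxcl9 stood at 433 CPM in MI-E, 95.3 in MI and 446 in Sham, far above its level in any other class, and Cxcl10 at 717 CPM in MI-E, 266 in MI and 514 in Sham. Slfn5 stood at 508 CPM in MI-E, 266 in MI and 839.8 in Sham, with MI 3.16-fold (95% interval 2.78 to 3.60) lower than Sham. All 4 IFIT genes rose in MI-E over MI, Ifit1 at 274 CPM in MI-E, 94.4 in MI and 178 in Sham and Ifit3 at 205 CPM in MI-E, 71.5 in MI and 47.8 in Sham among them. Ifi27l2a ran against them at 1657 CPM in MI-E, 2761 in MI and 387 in Sham, 1.67-fold (95% interval 1.59 to 1.74) lower in MI-E than in MI.

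Endothelial cells poor in macrophage RNA, those whose macrophage markers stay under 10% of the macrophage level of their library, numbered 154 in MI-E, 34 in MI and 219 in Sham. In these, Gbp2 stood at 511 CPM in MI-E, 129.5 in MI and 98.9 in Sham, a ratio of 3.95-fold (95% interval 2.73 to 5.94) for MI-E over MI. Gbp7 stood at 408 CPM in MI-E, 80.4 in MI and 88.5 in Sham, Igtp at 259 CPM in MI-E, 35.7 in MI and 85.4 in Sham and Cxcl9 at 685 CPM in MI-E, 228 in MI and 594 in Sham. MI-E was the highest library for all 4 of these genes, as it was over the whole class for the 3 GTPases. Irgm1, at 148 CPM in MI-E, 174 in MI and 427 in Sham, did not rise there in MI-E over MI, and Ifi27l2a, at 459.5 CPM in MI-E, 209.9 in MI and 145 in Sham, was highest in MI-E in place of MI. Of the IFIT genes, Ifit1 alone passed 1.5-fold there in MI-E over MI, at a ratio of 1.55, while Ifit2 had 1.22, Ifit3 1.33 and Ifit3b 0.715. Isg15 in these cells of Sham was at 988 CPM, close to its 966 CPM in Sham neutrophils.

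Fibroblasts numbered 169 in MI-E, 73 in MI and 63 in Sham. In MI-E over MI, 16 of 50 members rose and 1 fell, beside 17.3% and 8.54% of all genes. That number was 7 with doublets kept, 9 after thinning, 6 at 2-fold and 26 with every cell weighted alike. For MI over Sham, 22 of 42 rose and 3 fell, beside 23.6% and 22.7%, and 2 rose after thinning. In MI-E over Sham, 36 rose and 2 fell, beside 27.8% and 21.5%, and 11 rose after thinning. Macrophage markers summed to 3619 CPM in MI-E, 5220.4 in MI and 13254 in Sham. Irf7 stood at 189.8 CPM in MI-E, 111 in MI and 38.9 in Sham and Ifit3 at 75.3 CPM in MI-E, 104 in MI and 8.19 in Sham. Cxcl9 stood at 53.9 CPM in MI-E and 3.37 in MI and had no UMI in Sham. Ifi27l2a, at 1776 CPM in MI-E, 3510.3 in MI and 1709 in Sham, and Irgm1, at 34.3 CPM in MI-E, 32.0 in MI and 129 in Sham, had the order seen in endothelial cells.

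Which members rose in every class and which in 1 differed by comparison. For MI-E over MI, 4 members rose in all 6 classes, namely Irf7, Oasl2, Gbp2 and Igtp, while 0.213% of the 5643 genes measured in all 6 classes did so. After thinning, Irf7 alone did so, at 2-fold Gbp2 alone, and with classes of 30 cells admitted Irf7 alone in 8 classes. Zbp1 and Slfn4 rose in 5 of the 6. MI-E and MI neutrophils differ in their mix of clusters. Within the 2 neutrophil clusters read, log2 ratios for MI-E over MI ranged from 0.25 to 1.05 for Irf7 and 0.45 to 0.76 for Oasl2. They ranged from 0.57 to 0.78 for Gbp2 and 1.76 to 1.88 for Igtp. In MI over Sham, Zbp1, Ifi27l2a and Bst2 rose in all 6 classes, beside 2.82% of 3896 genes. Of these, Zbp1 and Ifi27l2a did so at 2-fold and Ifi27l2a and Bst2 after thinning. In cells poor in macrophage RNA the members that did so were Bst2 and Xaf1. In endothelial cells of that kind, Ifi27l2a had a ratio of 1.45. Zbp1 there held fewer than 20 UMIs and was not measured, at 22.3 CPM in MI against 8.33 CPM in Sham. For MI-E over Sham, Irf7, Zbp1, Bst2, Trim30a and Phf11b rose in all 8 classes, beside 0.98% of 5206 genes. After thinning, 3 members rose in all 8, namely Irf7, Ifi27l2a and Bst2. In cells poor in macrophage RNA, Phf11b missed the limit in fibroblasts alone, at 14.6 CPM in MI-E and without a UMI in Sham. There the floor of 3 UMIs sets the bound. Cells rich in macrophage RNA were left out of T, NK, B and endothelial cells and fibroblasts only, not of neutrophils or dendritic cells. This left some classes with under 50 cells, such as 34 endothelial cells in MI and 35 fibroblasts in Sham.

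In MI-E over MI, 12 members rose in exactly 1 class, and 9 of these were measured in all 6. That is 9 of the 41 members so measured, beside 27.3% of genes, a share not above the background. For 7 of the 12 the class was endothelial, namely Isg15, Stat2, Cmpk2, Ifi203, Parp14, Eif2ak2 and Irgm1. In endothelial cells poor in macrophage RNA, 2 of the 7 still passed 1.5-fold, Stat2 and Parp14, while Isg15 had a ratio of 1.40, Cmpk2 1.16, Ifi203 1.38, Eif2ak2 1.46 and Irgm1 0.851. Rsad2, Oasl1 and Xaf1 rose in T cells, Oas2 in monocyte-macrophage cells and Phf11a in fibroblasts. Another 7 members rose in no class where they were measured, and these were Irf9, Ifi27l2a, Bst2, Trim30a, Phf11b, Slfn8 and Samd9l. Bst2, Trim30a and Phf11b thus rose over Sham in all 8 classes of MI-E without a rise in MI-E over MI in any. For MI over Sham, 6 members rose in 1 class, with Ifi203 and Parp9 in T cells and Phf11d, Gbp5, Herc6 and Igtp in dendritic cells, but Ifi203 alone was measured in all 6 classes, beside 24.2% of genes higher in exactly 1. Irf9, Cxcl9 and Samd9l rose in no class where they were measured. Over all 3 comparisons, Samd9l was the only member that rose in no class where it was measured.

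**Figure D4:**
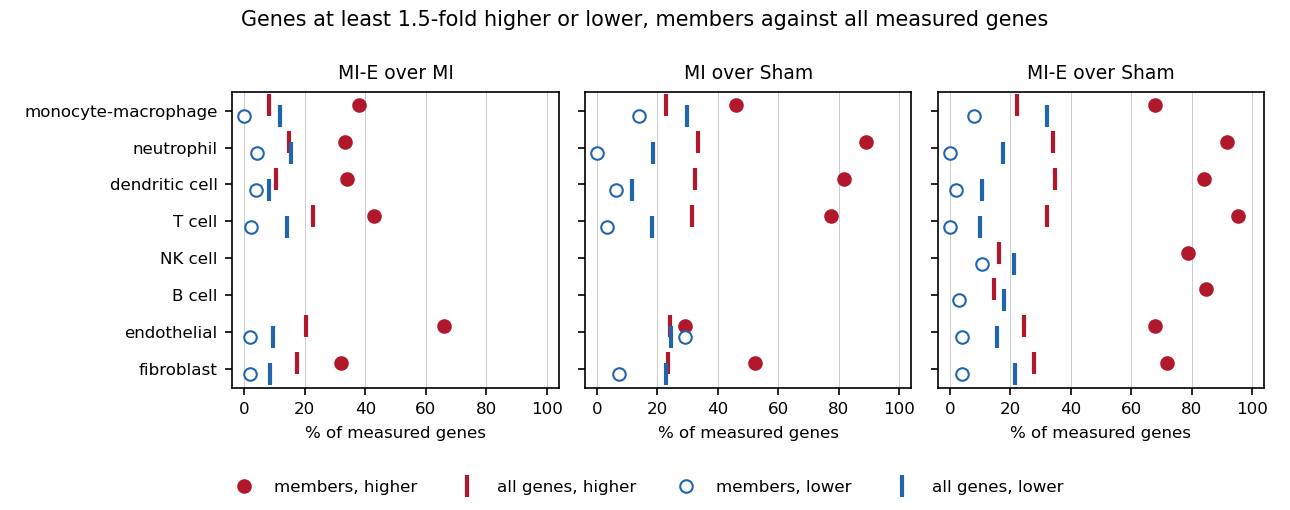
Percent (horizontal axis) of measured members (circles) and of all measured genes (bars) that were at least 1.5-fold higher (red) or lower (blue), by cell class, for MI-E over MI, MI over Sham and MI-E over Sham. In monocyte-macrophage cells 19 of 50 members are higher in MI-E than MI, beside 8.20% of all genes, and endothelial cells have equal numbers of members higher and lower in MI over Sham.

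Members differed in how far their RNA gathered in a few cells. In cells thinned to 1500 UMIs, the share of each member's UMIs was taken that lay in the 10% of cells richest in the other members. The median over members was 26.9% in MI-E, 31.4% in MI and 22.0% in Sham for monocyte-macrophage cells, and 33.7% in MI-E, 40% in MI and 29.2% in Sham for neutrophils. Ifit3 had 62.4% of its UMIs in these cells in MI-E, 71.3% in MI and 61.4% in Sham, and Ifit2 had 58.9% in MI-E, 65.6% in MI and 41.1% in Sham. Isg15 had 29.9% in MI-E, 40.9% in MI and 21.8% in Sham. At the other end, Ifi27l2a had 13% in MI-E, 15.5% in MI and 14.9% in Sham. Bst2 had 14.9% in MI-E, 17.9% in MI and 16.2% in Sham, where an even spread would give 10%. Ifit3 in neutrophils reached 56.3% in MI-E and 82.1% in MI.

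**Figure D5:**
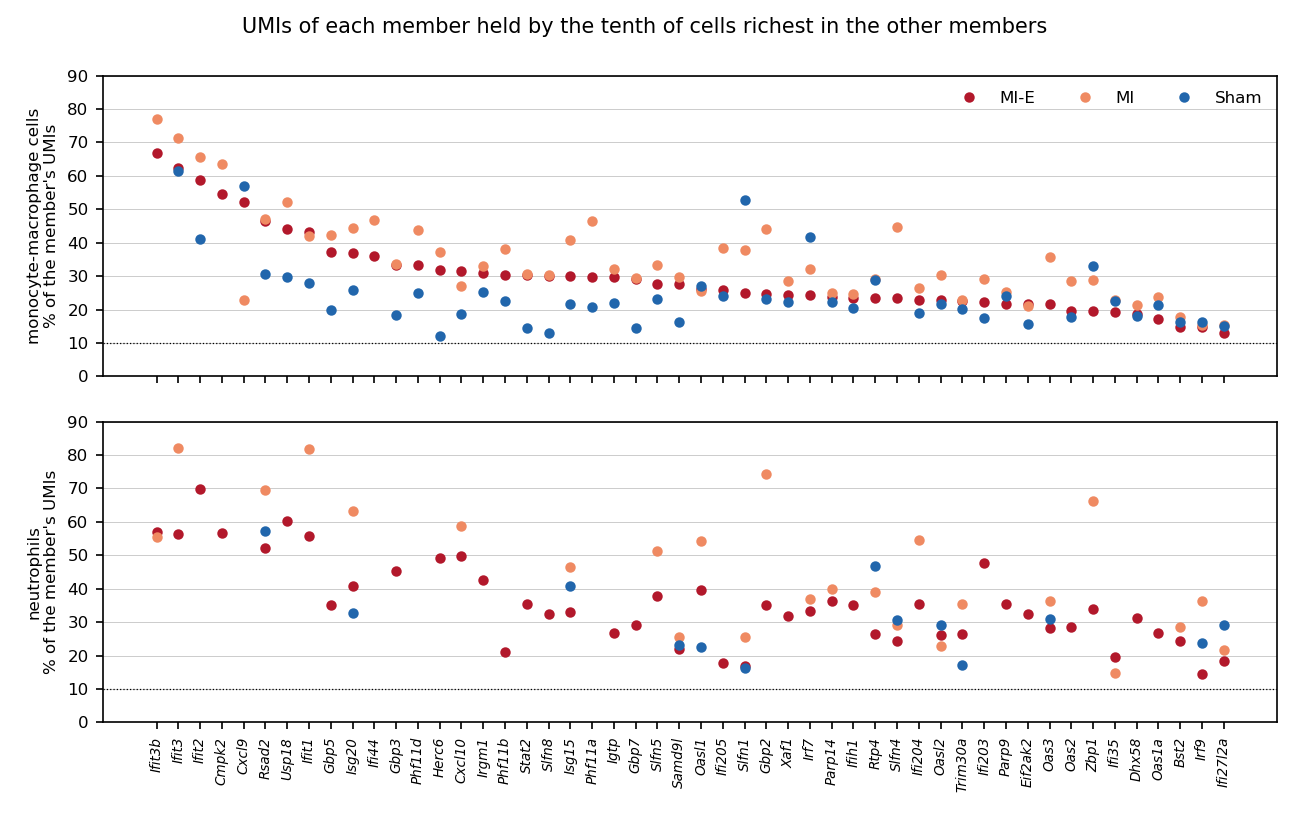
Percent of each member's UMIs found in the 10% of cells richest in the other members, after thinning to 1500 UMIs, in monocyte-macrophage cells and neutrophils, with 1 point per library (MI-E, MI, Sham) for members with at least 20 thinned UMIs. Ifit3, Ifit2 and Cmpk2 lie above 50% in MI-E and MI in monocyte-macrophage cells, and Ifi27l2a lies at 13% in MI-E.

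Across 47 pairs of cluster and library, the level of a member was compared with the summed level of the others as a description of likeness. Ifi27l2a was left out of that sum. These points share libraries and depth. Spearman's rho was 0.92 for Rsad2, 0.92 for Rtp4 and 0.90 for Oasl2, the 3 highest, and 0.81 for Irf7. It was 0.06 for Ifi203, 0.17 for Samd9l and 0.29 for Phf11b, the 3 lowest.

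Genes upstream of the members, which are not members themselves, were read from a list of 40 ligands, receptors, kinases, factors, sensors and inhibitors. In monocyte-macrophage cells, 3 of 30 measured genes rose and 1 fell in MI-E over MI, and 2 rose and 7 fell in MI over Sham. Over all genes of the class, 8.20% were higher and 11.9% lower in MI-E over MI, and 22.8% and 29.8% in MI over Sham. In neutrophils, 10 of 19 rose and 0 fell in MI over Sham, beside 33.3% and 18.4%. Over the monocyte-macrophage class as a whole, Ifnb1, which encodes interferon beta, did not follow its targets. It stood at 7.38 CPM in MI-E, 16.6 in MI and 63.6 in Sham. Its ratio was 0.445 (95% interval 0.401 to 0.493) for MI-E over MI and 0.261 (95% interval 0.242 to 0.282) for MI over Sham. Different clusters make up this class in Sham and in the infarct libraries, and none of the pathway genes was read within clusters. Over all cells Ifnb1 had 606 UMIs in 283 cells of MI-E, 1313 UMIs in 471 cells of MI and 1589 UMIs in 468 cells of Sham. Ifng, which encodes type II interferon, had 195 UMIs in MI-E, 118 in MI and 463 in Sham. It was densest in NK cells in MI-E, at 244 CPM, and in Sham, at 389.9 CPM. In MI it stood at 193 CPM in T cells and 178 CPM in NK cells.

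Irf1, a factor of the type II response, differed in order by class, at 28.0 CPM in MI-E, 27.1 in MI and 94.5 in Sham in monocyte-macrophage cells and 311 CPM in MI-E, 147 in MI and 772 in Sham in endothelial cells, but 101 CPM in MI-E, 99.9 in MI and 24.8 in Sham in neutrophils. Tmem173, which encodes STING, the adaptor of cytosolic DNA sensing, stood at 42.0 CPM in MI-E, 25.6 in MI and 22.0 in Sham. Ddx58, which encodes the RNA sensor RIG-I, stood at 39.8 CPM in MI-E, 27.6 in MI and 13.8 in Sham. Socs3, an inhibitor of cytokine receptors, stood at 119 CPM in MI-E, 97.0 in MI and 275 in Sham.

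Some members share sequence with near copies, and 12 of the 50 had at least 1 window of 91 bases near the 3' end of their transcripts in common with another gene. The share of such windows was 42.2% for Oas1a, with Oas1g, 29.5% for Ifi205, with Ifi211 and Mndal, 22.2% for Phf11b and 6.34% for Ifit3, with Ifit3b. Levels of these genes are uncertain to that extent.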

How the data were processed

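The authors deposited 1 matrix of whole UMI counts per gene and barcode for each library, made with Cell Ranger 5.0.1 and the build mm10 per the submitters' processing notes; the annotation release and settings are not given in the sources used here. Barcodes needed 200 genes or more and no more than 10% of UMIs from mitochondrial genes, and predicted doublets (311 in MI-E, 643 in MI, 436 in Sham) were removed, by the automatic threshold in MI-E and Sham and by the expected rate in MI. The 2000 most variable genes, without the members and 40 pathway genes, gave 30 components, 15 neighbours and Leiden clusters at resolution 1 (scanpy 1.11.5, leidenalg 0.10.2). Clusters took the best of 19 marker lists with at least 3 markers seen in at least 20% of cells; 725 cells of MI-E, 922 of MI and 62 of Sham stayed unnamed. Class sums were scaled to CPM, and log2 ratios are of CPM + 1. Levels and ratios have exact Poisson and shares exact Clopper-Pearson intervals (scipy 1.17.1), at 95%. With 0 UMIs in the lower library, 3 counts set a bound. Members, lists and class comparisons were chosen with earlier results of these data known; all members are described, in full for factors, the ISG15 system, IFIT and chemokines and otherwise for the most abundant member of each role and those of highest and lowest ratio in macrophages, with further members of values already seen. TMM factors came from edgeR 4.0.16. A gene among the pathway genes is counted but not reported here by name. Alternatives are given in the closing section. The scripts were tested on simulated data.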

Additional observations from a re-analysis of the deposited data

Results flagged for a closer look

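Members that were at least 2-fold higher in 1 class and 2-fold lower in another are given here, 7 in all, with 2 clusters whose signal lay in cells without a class name. At 1.5-fold, members higher in some class and lower in another numbered 5 in MI-E over MI, 15 in MI over Sham and 7 in MI-E over Sham. The share of all genes with such opposite calls was not counted at either limit. These numbers are therefore not read as particular to the members. None of these differences between classes was tested.

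Between MI-E and MI, Cxcl9 was higher in dendritic cells (ratio 2.63), endothelial cells (4.54) and fibroblasts (16) and lower in neutrophils (0.252), where MI-E held 2.46 CPM and MI 9.75 CPM. Phf11d was higher in T cells (7.96, 95% interval 1.29 to 328, from 1 UMI in MI) and endothelial cells (2.02) and lower in neutrophils (0.321). Against Sham, Cxcl9 of MI-E was at least 8.77-fold higher in fibroblasts, whose Sham cells had no UMI, and lower in dendritic cells (0.428).

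Between MI and Sham, Oas2 was higher in neutrophils (2.43) and dendritic cells (3.84) and lower in monocyte-macrophage cells (0.484). Rtp4 was higher in neutrophils (3.55), dendritic cells (4.89) and T cells (4.53) and lower in endothelial cells (0.467). Slfn5 was higher in neutrophils (10.2) and dendritic cells (3.26) and lower in T cells (0.341, 95% interval 0.00820 to 2.14, from 1 UMI in MI) and endothelial cells (0.316). Parp14 was higher in neutrophils (3.36) and T cells (2.52) and lower in endothelial cells (0.477). Irgm1 was higher in neutrophils (8.29) and T cells (2.22) and lower in endothelial cells (0.178) and fibroblasts (0.248). Irgm1 of MI-E, set against Sham, again was higher in neutrophils (10.9) and lower in endothelial cells (0.308) and fibroblasts (0.266).

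A pair of clusters carried member RNA but no class name. Cluster 11, led by Lars2 and Apobec1, held 8187 summed CPM of the members in MI-E and 6890.2 CPM in MI, against 2286 CPM in Sham. Cluster 16, led by Ear2, Ly6i and G0s2, held 11961 CPM in MI-E and 9574 in MI.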

How the results depend on the processing

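The median log2 ratio of the members changed sign in 1 comparison, MI over Sham in endothelial cells, at -0.03 with doublets kept against 0.10. Within monocyte-macrophage clusters, single members changed sign from the class as a whole, 9 in MI over Sham, 10 in MI-E over Sham and 3 in MI-E over MI. The alternatives cover doublets, clustering with the members, resolution 2, a mitochondrial limit of 5%, TMM factors, CPM + 10, no UMI minimum, 2-fold, thinning, equal weight for cells, cells poor in macrophage RNA and the class without its low-depth cluster. The last 2 of these were chosen after seeing the data. No paired analysis was possible because each group is 1 library. Sham is the shallowest library, which limits scarce members most. The cause of each shift below was not tested, except that thinning and the UMI minimum change how many members are measured.

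Numbers of members higher in MI-E over MI at 2-fold were 6 in monocyte-macrophage cells, 8 in neutrophils, 8 in dendritic cells, 19 in endothelial cells and 6 in fibroblasts. At 2-fold in MI over Sham, 3 were lower in monocyte-macrophage and 5 in endothelial cells. With doublets kept, 9 were higher in T cells and 7 in fibroblasts in MI-E over MI, and 26 in NK cells in MI-E over Sham. With every cell alike, the numbers higher were 11 in T cells and 26 in fibroblasts (MI-E over MI) and 9 in NK cells, and 7 were lower in endothelial cells (MI over Sham). In cells poor in macrophage RNA, 8 were higher in T cells (MI-E over MI) and 6 lower in endothelial cells (MI over Sham). Without a UMI minimum, 39 were higher in T cells (MI over Sham) and 37 in NK cells (MI-E over Sham).

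After thinning to 1500 UMIs, the numbers higher were 7 in T cells and 9 in fibroblasts for MI-E over MI. For MI over Sham they were 24 in dendritic cells, 9 in T cells, 2 in fibroblasts and 7 in endothelial cells, with 9 lower there. For MI-E over Sham they were 17 in T cells, 5 in NK cells and 11 in fibroblasts. Members higher in every class in MI-E over MI numbered 1 at 2-fold, with classes of 30 cells, and after thinning, and 3 after thinning in MI-E over Sham. Averaged over monocyte-macrophage clusters, the numbers lower were 0 in MI over Sham and 0 in MI-E over Sham, against 7 and 4 over the class.

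Median log2 ratios with CPM + 10 were 0.35 for MI-E over MI and 0.75 for MI-E over Sham in monocyte-macrophage cells, and 1.07 for MI-E over Sham in T cells. After thinning they were 0.80 in fibroblasts (MI-E over MI) and 1.09 in monocyte-macrophage cells (MI-E over Sham). With every cell alike they were 0.67 in MI over Sham and 1.12 in MI-E over Sham in monocyte-macrophage cells.

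Summed levels in monocyte-macrophage cells after thinning were 9904 CPM in MI-E, 8144 in MI and 4605 in Sham. With doublets kept they were 7572 CPM in MI and 4932 CPM in Sham, and with the members in the clustering 7614 CPM in MI. In neutrophils they were 11832 CPM in MI-E and 9488 in MI after thinning, and 11626 CPM in MI-E and 3779.5 CPM in Sham with doublets kept. Of monocyte-macrophage cells, 91.5% in MI-E, 71.5% in MI and 63.8% in Sham held at least 5 members at 3000 UMIs; at 1500 UMIs 91.5% in MI-E, 76.5% in MI and 67.5% in Sham held at least 3 members, and 30.9% in MI-E, 16.9% in MI and 5.79% in Sham at least 8. Of neutrophils, 92.5% in MI-E, 81.8% in MI and 27.7% in Sham held at least 5 members at 3000 UMIs, from 936 cells of that depth in MI-E, 77 in MI and 47 in Sham; at 1500 UMIs 85.7% in MI-E, 73.6% in MI and 42.1% in Sham held at least 3 members, and 42.5% in MI-E, 23.6% in MI and 3.22% in Sham at least 8.
The longer response element, with CT after the second GAAA, lay in 36.6% of member windows. Counting every setting, medians stayed within their tolerance in 186 and moved in 7, numbers higher stayed in 170 and moved in 23, and numbers lower stayed in 134 and moved in 59. Summed levels stayed in 32 and moved in 40, and shares of cells moved in all 72.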

Other observations

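Nonclassical monocytes, a patrolling blood type led here by Ace, Cd300e and Adgre4, numbered 67 in MI-E and 155 in Sham. Of 22 measured members, 20 rose and 1 fell in MI-E over Sham, beside 19.5% and 17.8% of all genes of the cluster. The members summed to 9733 CPM in MI-E and 1658 CPM in Sham, and 74.6% of MI-E cells against 1.52% of Sham cells held at least 5 members at 1500 UMIs.

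Neutrophils of the infarct libraries fell into clusters that differed in the members. Only the members and the pathway genes were left out of the clustering, and near copies of members, such as Oas1g, were not. The cluster led by Cstdc4, Stfa2l1 and Asprv1 summed to 14281 CPM in MI-E and 12207 in MI. The cluster led by Il23a, Siglecf and Gpr84 summed to 5537 CPM in MI-E and 6043 in MI. Among macrophages of MI-E and MI, the cluster led by Cfb, Cd72 and Axl summed to 11559 CPM in MI-E and 10597 in MI, against 6271 CPM in MI-E and 6301 in MI in the cluster led by Gpnmb and Cd5l.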
